A study of Drosophila melanogaster with 16 samples.

Results

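The trachea of male larvae of Drosophila melanogaster was compared between animals exposed to cigarette smoke and animals exposed to air. These were 8 of the 16 libraries of the study, 4 from smoke and 4 from air, chosen as all columns of the deposited male table; the other 8 were made from females in the same way. The larvae were of Canton S, a wild-type laboratory strain, and the trachea was isolated before RNA was taken. The smoke larvae were given mainstream smoke for 60 min, drawn from 3R4F research cigarettes with 4 puffs each min, and the control larvae received air. Nothing in the labels says whether the replicates came from separate animals or how many larvae were pooled, so p-values measure only how these samples spread, and that spread may be technical.

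The larval trachea is a branched network of epithelial tubes that opens at the spiracles and carries air to every tissue. Its cells lay down a chitinous cuticle and an apical matrix on the inner face of the tube and shed them at each moult. The airway epithelium is also a barrier tissue, which can mount chaperone, redox, JNK, JAK-STAT and Imd responses to damage and infection. In bulk RNA of an isolated organ, fewer cells of a type and less RNA per cell cannot be told apart.

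The 8 libraries held between 15036560 and 22043740 reads in genes. Most genes that mark the trachea were well expressed in every library. Their summed level was 10764 to 15079 CPM (recovered reads scaled to 1 common library total) in smoke and 8154 to 12748 CPM in air, with trh, the transcription factor gene of tracheal fate, at 727 to 893 CPM in smoke and 443 to 651 CPM in air. Of the 18 tracheal markers measured, 12 reached at least 18.4 CPM in every library. The other 6 were near 0: Osi6, Osi7, Osi14, Osi20 and dnd were at 2.33 CPM or less throughout, and Osi19 at 0.14 to 8.38 CPM. RNA of other tissues was present too, and most of it lay in air replicate 3. The 14 fat body markers summed to 34836 CPM there, against 1305 to 5570 CPM in the other 3 air libraries and 497 to 1995 CPM in smoke. The 17 salivary gland markers summed to 7935 CPM in air replicate 3, against 175 to 194 CPM in the other air libraries and 157 to 285 CPM in smoke. Outside air replicate 3 most of that sum was CrebA, at 149 to 179 CPM in air and 150 to 263 CPM in smoke. CrebA was at 126 CPM in air replicate 3. The glue gene Sgs1, which defines the late larval salivary gland, was at 737 CPM in air replicate 3 and at 0.233 to 0.972 CPM in the other 7 libraries.

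Muscle markers were uneven in both groups. The 19 markers summed to 1047, 4089, 1217 and 1426 CPM in smoke replicates 1 to 4, against 4497, 3722, 15141 and 7134 CPM in air replicates 1 to 4. Smoke replicate 2 therefore lay within the air range. Midgut markers summed to 1.34 to 5.49 CPM in smoke replicates 1, 2 and 4 and to 125 CPM in smoke replicate 3, against 18.1 to 56.5 CPM in air. Hemocyte markers summed to 1211 to 1884 CPM in smoke and 1698 to 2508 CPM in air. Each main count below is therefore also given without air replicate 3, and the part of these tissues in the results was not tested beyond that.

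**Figure D1:**
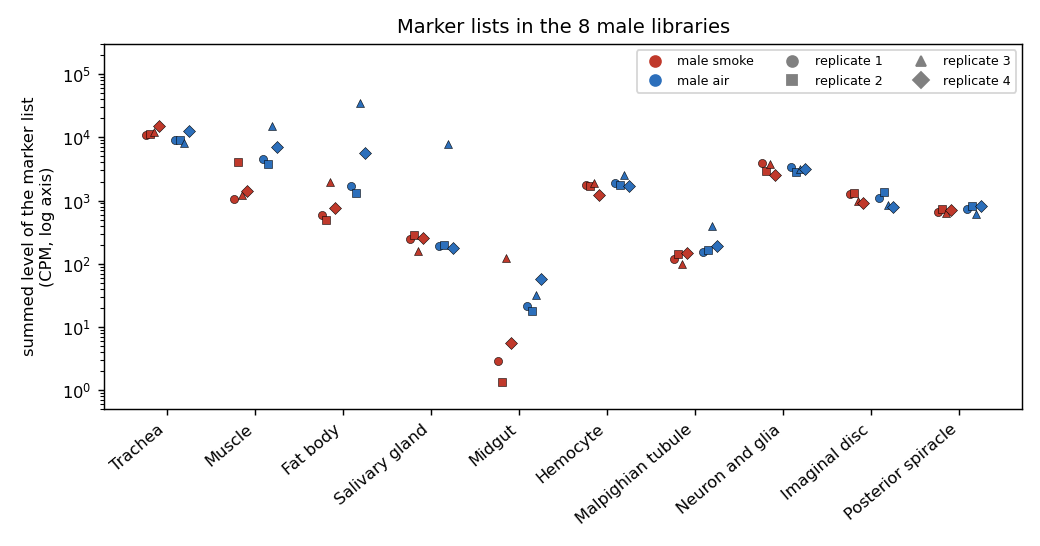
Summed level of 10 marker lists in each male library, in CPM on a log axis, with smoke at the left of each pair and air at the right, and 1 symbol shape per replicate number. Air replicate 3 (blue triangle) stands at 34836 CPM for fat body and 7935 CPM for salivary gland, and smoke replicate 2 (red square) at 4089 CPM for muscle.

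Smoke changed 1178 of the 8705 genes tested, which is 13.5% of them. Of these, 774 rose (8.89% of all genes tested) and 404 fell (4.64%) at a limma adjusted p under 0.05. A change of at least 2-fold was seen for 149 of the genes that rose and 271 of those that fell, so the rises were more numerous and the falls larger. All 4 smoke values lay above all 4 air values for 1168 genes (13.4%) and below them for 793 (9.11%). Scaling mattered for the balance: rises made up 65.7% of the calls with the deposited size factors and 48.6% (444 higher, 470 lower) when each library was given the same total, which moved the median log2 change of all genes from -0.01 to -0.08.

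Without air replicate 3, limma called 769 genes (8.83%), of which 526 rose (6.04%) and 243 fell (2.79%). Called both ways were 707 genes, 490 that rose and 217 that fell. Air replicate 3 was the highest of the 8 libraries for 197 of the 404 genes that fell, and for 1763 (20.3%) of all 8705 genes tested. For all 774 genes that rose a smoke library was the highest, so the 20.3% is not a matched share for falls. Of the 187 falls lost without air replicate 3, 116 had their highest value there, and of the 217 kept, 81. The column names of replicates 1 and 2 are written in another style than those of replicates 3 and 4. With a term for that style limma called 1967 genes (1242 higher, 725 lower), against 146 in replicates 1 and 2 alone and 11 in replicates 3 and 4 alone. The count also moved by more than 1.5 times without smoke replicate 1 (496 called), smoke replicate 3 (702), smoke replicate 4 (639), air replicate 2 (556) or air replicate 4 (614).

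Counts of list members stand against 8.89% of all genes called higher and 4.64% called lower. Without air replicate 3 these shares were 6.04% and 2.79%. Values below are normalised read counts. Means carry the SD over the 4 libraries of a group. A log2 change is that of smoke relative to air, computed on log2(value + 1) and printed with its SE. Unless stated otherwise, each gene said to have risen or fallen was called both with and without air replicate 3, and its 4 smoke values lay on 1 side of its 4 air values. Several genes overlap another measured gene in the reference annotation, and the use of strand in counting is not given in the sources used here, so reads of the pair cannot be told apart. These are Hsp68 (with CG6000), Hsp70Ab (CG3281), puc (CR44331), kay (fig), Rel (Nmdmc), Atg1 (CG42709), Hph (CR45793), ref(2)P (CG10337), Ire1 (MICU3), trh (CR45378), Tsf3 (CG15706), MTF-1 (Bet3 and CG42526), shn (CG13229), cnc (Irk1 and fzo), ATPCL (CG8320 and Tmem131), Cpr56F (CkIIbeta2), Jabba (Cyp12b2), Cyp4d20 (Svil), Ugt36E1 (CG17597), nompA (CG43114), crq (ex), Prat (Taf7), Prp40 (Sf3b2), Rrp45 (Sap30), Grip71 (Irk3), ec and roX1 (each other), Dif (CG15141), CG11825 (CG33474), Hsp83 (CG14966), Jra (RpLP0-like), Lsd-1 (CG10214), Mrp5 (CG4686), Cpr64Ad (CG43367), CG1142 (scaRNA:MeU5-C46), bou (ogre), moody (CG4313), Hexo2 (CG2004), tra (l(3)73Ah) and Vha100-2 (Vti1b).

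Heat shock genes rose, most of all the copies of Hsp70. Heat shock proteins are chaperones that bind unfolded proteins, and the inducible ones are switched on by the factor Hsf. All 7 inducible Hsp70 and Hsp68 genes rose, with and without air replicate 3, also with libraries given the same total, and with a median log2 change of 7.45 (the same with the gene that had no read in air set at its bound of 3 reads per library) against -0.01 over all genes tested. The Hsp70 copies passed the filter through the smoke libraries alone, so this count and median are partly fixed by the filter. Hsp70Bc (FBgn0013279, chromosome arm 3R) stood at 670.5, 767, 261 and 787 in smoke replicates 1 to 4, against 3.3, 1.56, 2.54 and 1.92 in air replicates 1 to 4, which was 10 reads in all of air (limma adjusted p = 4.46e-05). Hsp70Bb stood at 829, 933, 283 and 1063 in smoke, against 2.48, 0, 0 and 0.958 in air, and Hsp70Bbb at 136, 210.4, 90.0 and 263 in smoke, with no read in any air library. These genes were thus nearly silent in every air library and high in every smoke library, and smoke replicate 3 was the lowest of the 4 for all 3. The Hsp70 copies are near-identical, so how the reads were split between them is uncertain. Hsp68 (FBgn0001230, chromosome arm 3R) is a separate inducible chaperone gene. Its values were 4028, 5775, 1814 and 10666 in smoke, against 149, 82.5, 444 and 172 in air, a log2 change of 4.71 ± 0.63, limma adjusted p = 0.00351.

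Of 6 small heat shock protein genes tested, 4 rose, with and without air replicate 3. Small heat shock proteins hold unfolded clients until the larger chaperones take over. Hsp26 (FBgn0001225, chromosome arm 3L) stood at 21102, 22991, 14321 and 28889 in smoke, against 396, 775, 245 and 1730.1 in air (log2 change 5.14 ± 0.55, limma adjusted p = 0.00148). Every smoke value lay far above every air value, although the air values themselves spread widely. Hsp23 stood at 12011, 15308, 9596 and 21739.7 in smoke, against 1388, 2133, 1567 and 3523 in air (log2 change 2.80 ± 0.34, limma adjusted p = 0.00243), and Hsp67Bc averaged 374 ± 91.5 in smoke and 58.9 ± 41.1 in air (log2 change 2.88 ± 0.48). Hsp27 also rose (log2 change 1.59 ± 0.30), a gene named after its values were seen, as are Hsp83, Gclc, Mdr65, Ccp84Af, Cpr64Ad, Gadd45, Jra, Lsd-1, Cpr97Ea, Cpr49Ah, zye, Lcp1 and Cpr78E below. Hsp22 was listed at 0 in all 8 libraries and was not tested.

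Of 14 co-chaperone and constitutive chaperone genes, 7 rose, 5 of them without air replicate 3, and 4 with libraries given the same total. The pair that moved most works with Hsp70. stv (FBgn0086708, chromosome arm 3L), the BAG-domain co-chaperone gene starvin, stood at 22351, 20141, 23450.5 and 30015 in smoke, against 1830.3, 1414, 2032 and 1937 in air, a log2 change of 3.73 ± 0.15, limma adjusted p = 4.46e-05. DnaJ-1 (FBgn0263106, chromosome arm 3L), an Hsp40 that hands clients to Hsp70, stood at 24901, 24804, 16418 and 27370.1 in smoke, against 1959, 2913, 1849 and 2214 in air, a log2 change of 3.38 ± 0.19, limma adjusted p = 6.63e-05. Both groups were tight, and no smoke value came near the air range. The Hsp90 gene Hsp83 rose by 1.19 ± 0.17 and the mitochondrial Hsp70 gene Hsc70-5 by 0.62 ± 0.06 on the log2 scale. Hsf itself averaged 1429 ± 117 in smoke and 1108 ± 92 in air, and passed with all libraries (log2 change 0.37 ± 0.09, limma adjusted p = 0.0328) but not without air replicate 3 (0.0749), nor without any of smoke replicates 1, 2 and 4 and air replicates 1 and 4 (0.0559 to 0.0871).

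**Figure D2:**
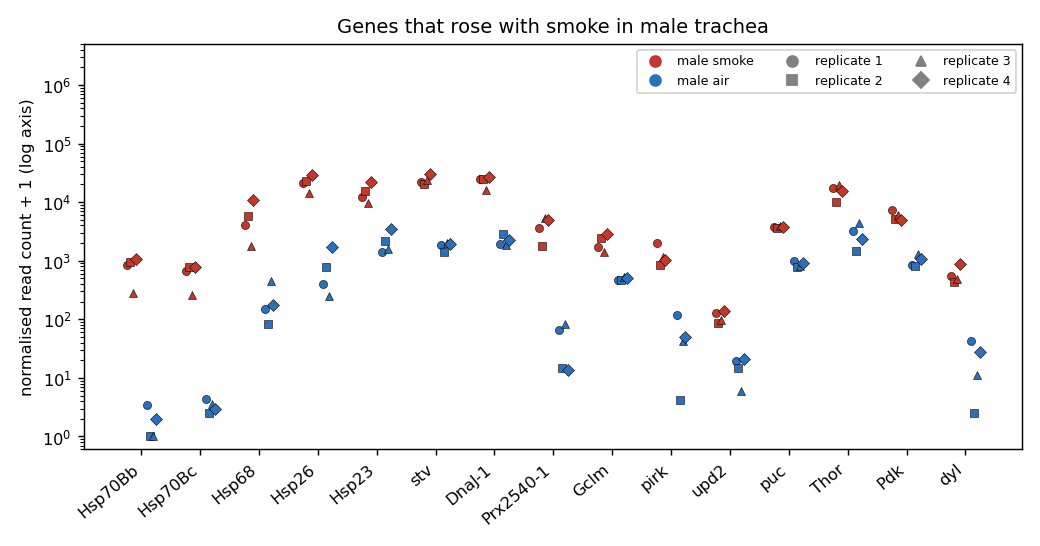
Normalised read count plus 1 on a log axis for 15 genes that rose, with the 4 male smoke libraries (red) left of the 4 male air libraries (blue) for each gene. The plotted Hsp70 copies, Hsp70Bb and Hsp70Bc, have values of 0 to 3.3 in air and at least 261 in smoke, and for stv, DnaJ-1 and puc the points within each group lie close together.

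Part of the redox genes rose. Of 22 antioxidant genes and genes of the CncC factor tested, 7 rose and 2 fell (7 and 1 without air replicate 3). The peroxiredoxins of the Prx2540 cluster, which reduce peroxides, lie beside the genes CG11825 and CG12896 on chromosome arm 2R, and all 4 rose. Prx2540-2 (FBgn0033518, chromosome arm 2R) stood at 11248, 4704, 28928 and 17859.6 in smoke, against 201, 28.8, 226 and 57.5 in air (log2 change 7.09 ± 0.77, limma adjusted p = 0.00158), and CG12896 at 1886, 964, 3559 and 2680.0 in smoke, against 18.2, 6.23, 39.4 and 6.71 in air (log2 change 7.15 ± 0.62, limma adjusted p = 0.000565). Smoke replicate 2 was the lowest of the smoke libraries for both, and was still far above every air library. Prx2540-1 stood at 3683, 1774, 5338 and 4965 in smoke, against 64.4, 14, 81.4 and 12.5 in air (log2 change 6.81 ± 0.67, limma adjusted p = 0.00105); it is a near-identical copy of Prx2540-2, so the split between them is uncertain. Glutathione synthesis was represented by both subunits of its limiting enzyme. Gclm, the modifier subunit, stood at 1744, 2419.6, 1393 and 2864 in smoke, against 462, 467, 535 and 505 in air (log2 change 2.04 ± 0.21, limma adjusted p = 0.00119), and the catalytic subunit Gclc averaged 3665 ± 538 in smoke and 1299.7 ± 379.7 in air (log2 change 1.54 ± 0.22). The regulators had smaller changes. cnc, the gene of the factor that switches such genes on, averaged 9724 ± 770.3 in smoke and 7509 ± 644 in air (log2 change 0.37 ± 0.09, limma adjusted p = 0.0315) and was not called without air replicate 3 (0.0716) or without smoke replicates 1, 3 or 4 or air replicates 2 or 4 (0.0667 to 0.0878). Keap1, whose protein restrains CncC, was not called (log2 change 0.21 ± 0.13, limma adjusted p = 0.301).

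Among 29 glutathione S-transferase genes tested, which conjugate foreign compounds to glutathione, 3 rose and 2 fell with all libraries, near the 8.89% and 4.64% of all genes. Without air replicate 3, 6 rose and 2 fell, against 6.04% and 2.79% of all genes. Without air replicate 2 limma called 0 higher, with 5 higher at an unadjusted p under 0.05. GstD9 averaged 337 ± 38.3 in smoke and 178 ± 53.6 in air (log2 change 0.95 ± 0.20, limma adjusted p = 0.02), with adjusted p between 0.0545 and 0.0654 without smoke replicates 1 or 4 or air replicates 2 or 4. GstD8 (FBgn0010044, chromosome arm 3R) went the other way, at 0, 7.67, 2.65 and 2.34 in smoke, against 59.5, 51.4, 44.5 and 64.2 in air (log2 change -4.11 ± 0.62, limma adjusted p = 0.00562). GstD9 and GstD8 thus moved in opposite directions. GstO3 fell slightly (log2 change -0.29 ± 0.06, limma adjusted p = 0.022) and lost its call without 5 single libraries, at 0.0504 to 0.0615 (smoke replicates 1, 3 and 4, air replicates 1 and 2). GstD1, a common reporter of CncC activity, averaged 42000.2 ± 7953 in smoke and 29724 ± 4639 in air; its groups did not overlap, and it was not called (log2 change 0.49 ± 0.17, limma adjusted p = 0.0858).

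Of 6 ABC efflux transporter genes tested, 2 rose and 1 fell. The fall was that of Mdr65 (log2 change -1.37 ± 0.33, limma adjusted p = 0.0348), which was not called without air replicate 3 (0.0635) or without smoke replicates 1, 2 or 4 or air replicates 1 or 4. Mrp5 rose and lost its call without smoke replicates 1 or 4 or air replicates 2 or 4 (0.0545 to 0.0671). Mrp4 stood at 1038, 843, 1259 and 717 in smoke, against 404, 367, 487 and 434 in air (log2 change 1.16 ± 0.18, limma adjusted p = 0.00585). Of 11 metal response genes 2 rose, 4 without air replicate 3 and 1 without smoke replicates 1 or 4 or air replicate 2. MTF-1, the metal-sensing transcription factor gene, averaged 583 ± 19.5 in smoke and 420.4 ± 34.2 in air (log2 change 0.47 ± 0.08, limma adjusted p = 0.00881). Tsf3, a transferrin gene, rose by 0.98 ± 0.21, with adjusted p of 0.0701, 0.0568 and 0.0517 without smoke replicate 1, smoke replicate 4 or air replicate 2.

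JNK signalling genes rose with smoke. The JNK kinase cascade answers to wounding and oxidative stress and feeds back on itself through its own targets. Of 20 members tested, 9 rose and 11 were not called; 8 rose without air replicate 3 and 8 with libraries given the same total. puc (FBgn0243512, chromosome arm 3R), the phosphatase gene that JNK induces and that switches JNK off, stood at 3707, 3669, 3983 and 3779 in smoke, against 997, 770.0, 797 and 929.7 in air (log2 change 2.12 ± 0.09, limma adjusted p = 4.46e-05). The smoke libraries lay close together, and the groups were far apart. scaf, a protease-like gene and a known JNK target, stood at 12276, 10661, 11559 and 11158 in smoke, against 4507, 2962, 2858 and 4834 in air (log2 change 1.63 ± 0.18, limma adjusted p = 0.00165). kay, which encodes the Fos subunit of the AP-1 factor, averaged 10221 ± 689 in smoke and 5326 ± 714 in air (log2 change 0.95 ± 0.11, limma adjusted p = 0.00183), and Jra, the Jun subunit, rose by 0.52 ± 0.08. Gadd45, a damage-induced gene upstream of the kinases, rose by 1.34 ± 0.23. The pro-apoptotic gene rpr stood at 237, 146, 160.1 and 269 in smoke, against 58.6, 42.8, 54.7 and 56.6 in air (log2 change 1.88 ± 0.22, limma adjusted p = 0.0023). Every smoke value of rpr lay well above every air value.

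Of 21 apoptosis and DNA damage genes tested 3 rose, with and without air replicate 3. These were rpr, Xrp1 and Irbp. Xrp1 (FBgn0261113, chromosome arm 3R), a bZIP stress factor gene, averaged 36584 ± 4073 in smoke and 17524 ± 1585 in air (log2 change 1.06 ± 0.11, limma adjusted p = 0.00126). Irbp, a gene known for its part in DNA repair, rose by 0.82 ± 0.14.

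Genes of 2 ligands and 1 target of the JAK-STAT pathway rose. In this pathway the secreted ligands upd2 and upd3 bind the receptor Domeless, and Socs36E is a target that damps the signal. Of 13 members tested these 3 rose, with and without air replicate 3. upd2 (FBgn0030904, chromosome arm X) stood at 129, 86.1, 96.6 and 136 in smoke, against 18.2, 14, 5.09 and 20.1 in air (log2 change 3.00 ± 0.40, limma adjusted p = 0.00369). upd3 stood at 122, 63.9, 106 and 131 in smoke, against 36.3, 28, 16.5 and 45 in air (log2 change 1.75 ± 0.35, limma adjusted p = 0.0171), with adjusted p of 0.059 without smoke replicate 1 and 0.0501 without smoke replicate 4. Air replicate 3 was the lowest library for both ligands. Socs36E averaged 3705 ± 524 in smoke and 1066.8 ± 227 in air (log2 change 1.81 ± 0.16, limma adjusted p = 0.000783).

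Of 19 Imd pathway genes tested 4 rose (3 without air replicate 3, 2 with libraries given the same total, and 2 without smoke replicates 1, 3 or 4 or air replicates 2 or 4), and of 23 Toll pathway genes 4 rose (3 in both of those settings). The Imd pathway senses bacterial peptidoglycan and ends in the NF-kappaB factor Relish. pirk (FBgn0034647, chromosome arm 2R), a feedback inhibitor of its receptors, stood at 1968, 859.7, 1159 and 1035 in smoke, against 119.8, 3.11, 42 and 47.9 in air (log2 change 5.22 ± 0.92, limma adjusted p = 0.0103). Air replicate 2 held almost none, and the highest air value lay far below the lowest smoke value. Rel, the Relish gene, stood at 4331, 4885, 5243 and 4215 in smoke, against 3279.9, 2302, 2163 and 2193 in air (log2 change 0.93 ± 0.15, limma adjusted p = 0.00658). In the Toll pathway the ligand gene spz averaged 723 ± 92.4 in smoke and 371 ± 89.8 in air (log2 change 0.98 ± 0.17, limma adjusted p = 0.00955), and the NF-kappaB genes dl and Dif rose by 0.59 ± 0.10 and 0.64 ± 0.11. The antimicrobial peptide genes, the best known outputs of both pathways, were not called: limma called 0 of 14 and edgeR 0, DESeq2 called 2 higher, and 1 was higher at an unadjusted p under 0.05. Their summed level was 61.7 to 354 CPM in smoke and 27.7 to 209 CPM in air.

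Of 22 insulin, FoxO and TOR genes tested, 5 rose and 17 were not called (4 rose without air replicate 3). Thor (FBgn0261560, chromosome arm 2L), the 4E-BP brake on translation and a FoxO target, stood at 17577, 9948, 19678 and 15421 in smoke, against 3222, 1473, 4413 and 2313 in air (log2 change 2.52 ± 0.35, limma adjusted p = 0.00393). ImpL2, a secreted protein that binds insulin-like peptides, stood at 3633, 3915, 4408 and 6983 in smoke, against 1095, 1486, 1404 and 1888 in air (log2 change 1.67 ± 0.23, limma adjusted p = 0.00421). For both genes the highest air value lay well below the lowest smoke value. foxo itself was not called (log2 change 0.49 ± 0.22, limma adjusted p = 0.165), and its groups overlapped. Of 21 hypoxia and glycolysis genes 2 rose (3 without air replicate 3), a share near the 8.89% of all genes. Pdk (FBgn0017558, chromosome arm 2R), the kinase that shuts the pyruvate dehydrogenase complex, stood at 7243, 5067, 6038 and 4965 in smoke, against 861, 818, 1314 and 1065.8 in air (log2 change 2.53 ± 0.18, limma adjusted p = 0.000198), and Hph, the oxygen-sensing prolyl hydroxylase gene, averaged 1616 ± 303 in smoke and 688 ± 41.2 in air (log2 change 1.21 ± 0.13, limma adjusted p = 0.00163).

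A few autophagy and unfolded protein genes rose. Of 22 autophagy genes 3 rose and 1 fell (2 rose without air replicate 3, and the fall was lost without any 1 library), near the 8.89% and 4.64% of all genes. Atg1, the kinase that starts autophagy, stood at 2525, 2520.2, 2237 and 3116 in smoke, against 1113, 1234, 913 and 1255 in air (log2 change 1.20 ± 0.13, limma adjusted p = 0.00165). ref(2)P, the p62 cargo receptor, averaged 6299 ± 642 in smoke and 3633 ± 159.7 in air (log2 change 0.79 ± 0.09, limma adjusted p = 0.00168). Of 22 genes of the unfolded protein and integrated stress responses 4 rose (3 without air replicate 3, 2 with libraries given the same total). This stood against 8.89% of all genes, and the median of the list was -0.02. PEK and Ire1 encode sensors of unfolded protein in the endoplasmic reticulum. PEK stood at 2748, 2744, 2818 and 2860.3 in smoke, against 1803, 1736, 1695 and 1716 in air (log2 change 0.68 ± 0.05, limma adjusted p = 0.000343), and Ire1 averaged 2276 ± 173 in smoke and 1228 ± 153 in air (log2 change 0.89 ± 0.10, limma adjusted p = 0.00185). The spread of PEK within each group was small beside the gap between the groups.

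Members of several developmental pathways rose, where 8.89% of all genes tested rose and 4.64% fell. Of 18 BMP pathway genes 4 rose (4 also without air replicate 3 and with libraries given the same total, and 2 without air replicate 2). Dad, the inhibitory Smad gene that BMP signalling induces, stood at 4867, 4122, 4676 and 3087 in smoke, against 1513, 1484, 1241 and 1138 in air (log2 change 1.63 ± 0.16, limma adjusted p = 0.00105), and shn, a nuclear partner of the Smads, rose by 0.97 ± 0.12. Of 23 Notch pathway genes 5 rose (4 without air replicate 3, 3 with libraries given the same total, and 3 without smoke replicates 1, 3 or 4 or air replicates 1 or 4). E(spl)mbeta-HLH, a repressor gene that Notch switches on, stood at 2917, 2606, 2828 and 3484 in smoke, against 952, 994, 1025 and 1256 in air (log2 change 1.49 ± 0.12, limma adjusted p = 0.000354). Of 22 EGF receptor pathway genes 3 rose and 1 fell (2 rose without air replicate 3), near the shares of all genes. The phosphatase gene csw averaged 8631 ± 1745 in smoke and 4073 ± 822 in air (log2 change 1.09 ± 0.18, limma adjusted p = 0.00881). Of 22 Wnt genes 4 rose and 1 fell (2 and 1 without air replicate 3; 1 rose without any 1 other library but smoke replicate 2, and 3 fell without air replicate 1, 2 without smoke replicate 4). The feedback inhibitor nkd rose by 0.70 ± 0.09, and Wnt6 (FBgn0031902, chromosome arm 2L), a ligand gene, fell to 194, 219.8, 282 and 162 in smoke, against 771, 953, 639.8 and 974 in air (log2 change -1.96 ± 0.20, limma adjusted p = 0.0011).

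Of 25 ecdysone response genes 6 rose and 1 fell (4 rose without air replicate 3, and 3 without smoke replicates 1 or 3 or air replicate 1). Ecdysone is the moulting hormone. Its receptor gene EcR averaged 9600.2 ± 796 in smoke and 6385 ± 510.0 in air (log2 change 0.59 ± 0.09, limma adjusted p = 0.00571), and Kr-h1, a factor of the juvenile hormone response, stood at 1128, 1126, 766 and 1069 in smoke, against 430.3, 539, 341 and 381 in air (log2 change 1.28 ± 0.18, limma adjusted p = 0.00393). Of 21 genes of tracheal identity and FGF branching 4 rose (2 without air replicate 3 or smoke replicate 1, and 1 without smoke replicates 3 or 4 or air replicate 2). trh averaged 15193 ± 1638 in smoke and 9842 ± 1641 in air (log2 change 0.63 ± 0.13, limma adjusted p = 0.0196), with adjusted p of 0.0509, 0.0505 and 0.0569 without smoke replicate 3, smoke replicate 4 or air replicate 2. The FGF receptor gene btl was not analysed here.

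Several of the deepest falls belonged to structural cuticle protein genes. These proteins bind chitin and give each cuticle its stiffness. Of 64 tested (of 128 measured, 16 of them listed at 0 in all libraries), 11 fell and 2 rose, and without air replicate 3, 7 fell. Neither rise held without air replicate 3 (adjusted p 0.0611 for Ccp84Af and 0.094 for Cpr64Ad), and edgeR called neither. The number that fell was 5 to 19 when 1 library was left out in turn, with 5 without smoke replicate 1, 6 without air replicates 1 or 4, 7 without smoke replicate 4 and 19 without smoke replicate 2. The median log2 change was -1.34, or -1.19 without air replicate 3, against -0.01 over all genes tested. Cpr92F (FBgn0038819, chromosome arm 3R) stood at 80.5, 153, 287 and 110.1 in smoke, against 9276, 8703, 10198 and 13108 in air, a log2 change of -6.17 ± 0.35, limma adjusted p = 6.63e-05. Cpr100A (FBgn0039805, chromosome arm 3R) stood at 47.5, 46, 115.1 and 41 in smoke, against 4016, 3647, 4074 and 5135 in air, a log2 change of -6.18 ± 0.31, limma adjusted p = 4.46e-05. Both genes were steady in air, air replicate 3 included, and low in every smoke library. Cpr62Bc (FBgn0035281, chromosome arm 3L) stood at 9.7, 35.8, 10.6 and 15.2 in smoke, against 1703, 866, 4061 and 2690.4 in air, a log2 change of -6.93 ± 0.54, limma adjusted p = 0.000343 (-6.59 without air replicate 3, its highest library). Cpr56F stood at 7.76, 25.6, 5.29 and 38.6 in smoke, against 218, 988, 96.7 and 559.8 in air (log2 change -4.41 ± 0.84, limma adjusted p = 0.0144), with an adjusted p of 0.0501 without smoke replicate 1. Cpr97Ea and Cpr49Ah also fell, by -1.93 ± 0.33 and -2.74 ± 0.51 as log2 changes.

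The cuticle genes Lcp1 and Cpr78E had another pattern. Lcp1, a major protein of the larval body cuticle, stood at 1894, 35591, 2889 and 1295 in smoke, against 49545, 46466, 91744 and 29061 in air (log2 change -3.64 ± 0.97, limma adjusted p = 0.0437), and Cpr78E at 155, 3583, 118 and 119 in smoke, against 4606, 6656, 4911 and 2272 in air (log2 change -3.85 ± 1.06, limma adjusted p = 0.0488). In both, smoke replicate 2 lay within the air range, as it did for the summed muscle markers, and the other 3 smoke libraries were low. Within air both genes were lowest in replicate 4 and the muscle markers in replicate 2. Neither was called without air replicate 3 (0.094 and 0.0946), and both lost the call without any other library but smoke replicate 2 (0.0751 to 0.128). In Cpr92F, Cpr100A and Cpr62Bc smoke replicate 2 lay far below every air library, although it was the highest smoke library for Cpr62Bc. The naming rule took only genes whose groups did not overlap, so this contrast with Lcp1 and Cpr78E was fixed by that rule.

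Of 12 zona pellucida domain genes, whose products form the extracellular matrix on the apical face of epithelia, 1 rose and 2 fell (1 and 1 without air replicate 3), against 8.89% and 4.64% of all genes. dyl (FBgn0066365, chromosome arm 3L) was the 1 that rose, at 549, 437, 492 and 864 in smoke, against 42.1, 1.56, 10.2 and 26.8 in air (log2 change 5.38 ± 0.80, limma adjusted p = 0.00559). nompA (FBgn0016047, chromosome arm 2R), known from the cap that ties sense organs to the cuticle, stood at 1.94, 12.8, 15.9 and 7.02 in smoke, against 58.6, 56.1, 85.2 and 90.1 in air (log2 change -3.06 ± 0.54, limma adjusted p = 0.0103). zye stood at 126, 1973, 187 and 90.2 in smoke, against 5400.1, 4982, 6991 and 2308 in air (log2 change -4.16 ± 0.91, limma adjusted p = 0.0238); smoke replicate 2 was again the highest smoke library, and the call was lost without air replicate 3 (0.0547) and without smoke replicates 1, 3 or 4 or air replicates 1 or 2 (0.0548 to 0.0751). Of 20 chitin and tube wall genes 1 rose and 1 fell (1 fell without air replicate 3), no more than the share of all genes. Cda5 (FBgn0051973, chromosome arm 2L), a chitin deacetylase gene, stood at 344, 343, 410.1 and 265 in smoke, against 1782, 1689, 1183 and 1597 in air (log2 change -2.19 ± 0.17, limma adjusted p = 0.000311).

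**Figure D3:**
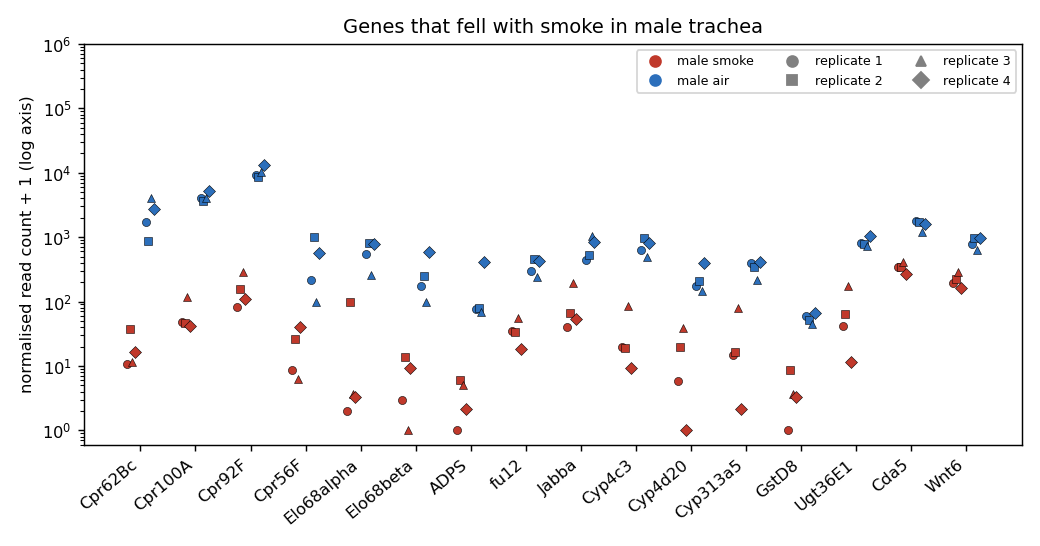
Normalised read count plus 1 on a log axis for 16 genes that fell, with the 4 male smoke libraries (red) left of the 4 male air libraries (blue) for each gene. No smoke point reaches the air points, which the naming rule required. Air replicate 3 (blue triangle) is not the highest air point except for Cpr62Bc and Jabba.

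Some lipid genes fell as well. Of 23 genes of fatty acid and very long chain lipid synthesis 5 fell and 18 were not called (4 fell without air replicate 3, and 3 without smoke replicates 1, 2 or 4 or air replicate 4), and of 21 genes of lipid droplets and storage 5 fell and 16 were not called (4 without air replicate 3, 3 without smoke replicate 1). The elongase genes Elo68alpha and Elo68beta, which lengthen fatty acids, were the largest falls in the first list. Elo68beta (FBgn0036128, chromosome arm 3L) stood at 1.94, 12.8, 0 and 8.2 in smoke, against 174, 248, 96.7 and 591 in air (log2 change -5.67 ± 0.88, limma adjusted p = 0.00626). Elo68alpha stood at 0.97, 96.3, 2.65 and 2.34 in smoke, against 540.2, 822, 253 and 786 in air (log2 change -6.30 ± 1.15, limma adjusted p = 0.0121), where smoke replicate 2 was far above the other 3 smoke libraries. ADPS (FBgn0033983, chromosome arm 2R), an enzyme of ether lipid synthesis, stood at 0, 5.11, 3.97 and 1.17 in smoke, against 76, 79.4, 67.4 and 417 in air (log2 change -5.34 ± 0.77, limma adjusted p = 0.00487). ATPCL, which makes the acetyl-CoA for fatty acid synthesis, averaged 4533 ± 219 in smoke and 6686 ± 912 in air (log2 change -0.55 ± 0.10, limma adjusted p = 0.0117), a small but even fall.

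In the storage list the falls included genes of the droplet itself and of glycerolipid synthesis. Jabba (FBgn0259682, chromosome arm 2R), a lipid droplet protein that also anchors histones, stood at 39.8, 64.8, 190.5 and 52.7 in smoke, against 446, 519, 1053 and 835 in air (log2 change -3.21 ± 0.49, limma adjusted p = 0.00585). fu12 (FBgn0026718, chromosome arm 2L), an acyltransferase of the glycerolipid pathway, stood at 34, 33.2, 54.2 and 17.6 in smoke, against 297, 459, 242 and 419 in air (log2 change -3.37 ± 0.34, limma adjusted p = 0.00115), and Agpat3, of the same enzyme family, at 1321, 1423, 1553 and 1550.2 in smoke, against 2479.5, 2499, 2493 and 2842 in air (log2 change -0.82 ± 0.08, limma adjusted p = 0.00105). Air replicate 3, which carried the fat body RNA, was the lowest air library for fu12 and the highest for Jabba. The perilipin gene Lsd-1, active in fat body, stood at 68.9, 85.2, 255 and 66.7 in smoke, against 677, 437, 3157 and 775 in air (log2 change -3.19 ± 0.66, limma adjusted p = 0.0196; -2.60 without air replicate 3), and lost its call without smoke replicate 1 (0.064) or smoke replicate 4 (0.0535).

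Among cytochrome P450 genes more fell than rose. These enzymes oxidise hormones, lipids and foreign compounds. Of 56 tested 9 fell and 4 rose (8 and 6 without air replicate 3; 2 to 8 fell and 0 to 6 rose when 1 library was left out, both fewest without smoke replicate 1). Cyp4c3 (FBgn0015032, chromosome arm 3R) stood at 18.4, 17.9, 83.3 and 8.2 in smoke, against 633, 958, 487 and 805 in air (log2 change -4.92 ± 0.61, limma adjusted p = 0.00265). Cyp4d20 stood at 4.85, 18.7, 38.4 and 0 in smoke, against 172, 209, 144 and 402 in air (log2 change -4.71 ± 1.04, limma adjusted p = 0.0246), and Cyp313a5 at 13.6, 15.3, 78 and 1.17 in smoke, against 401, 342, 214 and 417 in air (log2 change -4.55 ± 0.93, limma adjusted p = 0.0192). For all 3 smoke replicate 3 was the highest smoke library and smoke replicate 4 the lowest, and no group overlapped. Cyp4d20 had adjusted p of 0.0506 to 0.0752 without smoke replicate 1 or air replicates 1, 2 or 4, and Cyp313a5 of 0.0521 to 0.0581 without smoke replicate 1 or air replicates 2 or 4. Of 12 UDP-glycosyltransferase genes, which attach sugars to small molecules, 2 fell (1 without air replicate 3). Ugt36E1 (FBgn0027070, chromosome arm 2L) stood at 40.8, 63, 172 and 10.5 in smoke, against 810.3, 786, 719 and 1048 in air (log2 change -4.12 ± 0.70, limma adjusted p = 0.00929). The carboxylesterase gene alpha-Est1 stood at 3.88, 22.2, 39.7 and 7.02 in smoke, against 172, 348, 323 and 232 in air (log2 change -4.23 ± 0.64, limma adjusted p = 0.00578).

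Of 19 melanization genes, 1 rose and 2 fell, with and without air replicate 3. The falls were those of Pu and Mco1, and Mco1 lost its call without smoke replicate 1 or air replicates 1 or 2 (0.0538 to 0.0653). Pu, which makes the pterin cofactor of tyrosine hydroxylase, averaged 1195 ± 201 in smoke and 1912 ± 177 in air (log2 change -0.69 ± 0.13, limma adjusted p = 0.014). e, whose product couples dopamine to beta-alanine in cuticle tanning, stood at 1052, 1207, 1011 and 3038 in smoke, against 256, 391.6, 30.5 and 338 in air (log2 change 2.96 ± 0.80, limma adjusted p = 0.0451). Smoke replicate 4 was far above the other smoke libraries for e, and its adjusted p was 0.0611 to 0.103 without any 1 library other than air replicate 3.

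**Figure D4:**
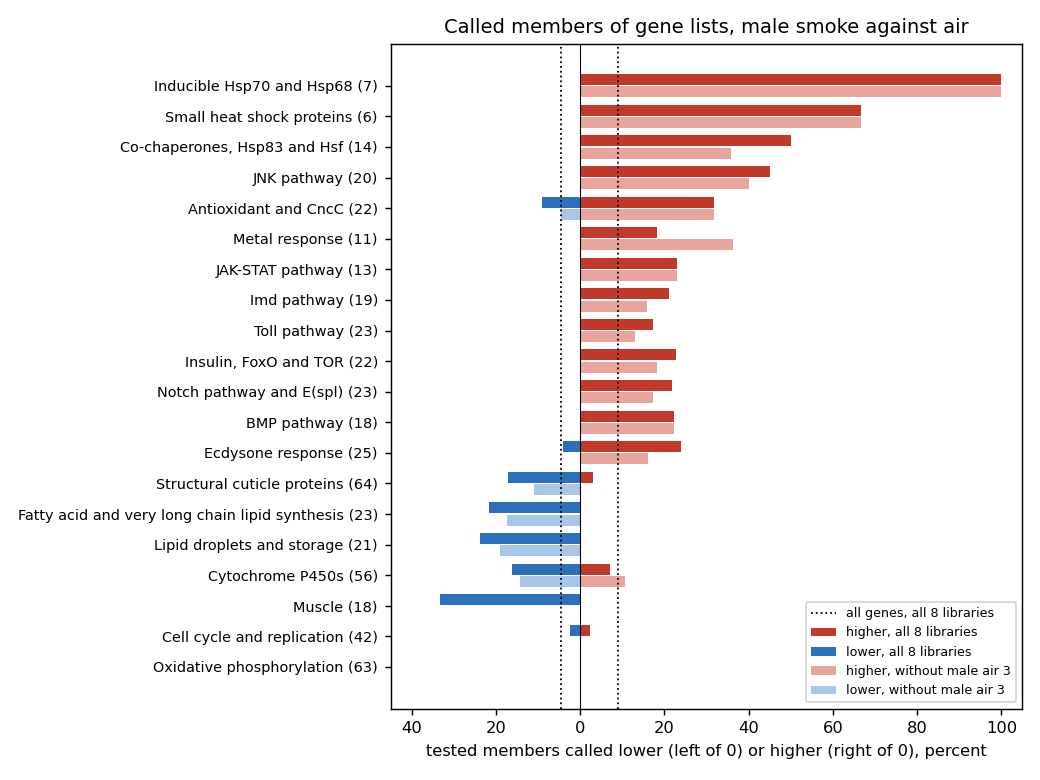
Share of the tested members of 20 gene lists called higher (right of 0) or lower (left of 0) in male smoke against air, in percent, with all 8 libraries in dark bars and without air replicate 3 in pale bars; numbers in brackets are members tested and dotted lines mark 8.89% and 4.64%, the shares of all genes called higher and lower. Heat shock and JNK lists reach furthest right, and the muscle bar is present with all 8 libraries and absent without air replicate 3.

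Few housekeeping genes were called. Of 42 cell cycle and replication genes 1 rose and 1 fell, and without air replicate 3 limma and edgeR called 0, with 3 higher and 1 lower at an unadjusted p under 0.05 in each. With all libraries edgeR and DESeq2 each called 1 higher and 1 lower, and 3 were higher and 1 lower at an unadjusted p under 0.05. Of 80 cytosolic ribosomal protein genes 1 rose (0 without air replicate 3), while 77 log2 changes were positive, with a median of 0.06. Of 68 mitochondrial ribosomal protein genes 3 fell (1 without air replicate 3), and 52 log2 changes were negative, with a list median of -0.13. Limma called 0 of 63 oxidative phosphorylation genes and edgeR 0, DESeq2 called 6 lower, 9 were lower at an unadjusted p under 0.05, and with libraries given the same total limma called 5 lower. Of the 63 log2 changes 60 were negative, with a median of -0.21 (-0.12 without air replicate 3). Limma, edgeR and DESeq2 each called 0 of 31 proteasome genes, with 1 lower at an unadjusted p under 0.05, although all 31 log2 changes were negative, with a median of -0.18. Of 18 muscle markers tested 6 fell with all libraries; edgeR called 1 lower and DESeq2 14, and unadjusted p-values under 0.05 marked 17 as lower. Without air replicate 3 limma and edgeR called 0 muscle markers, with 16 lower at an unadjusted p under 0.05 in limma and 6 in edgeR. Leaving out another library in turn gave 0 to 16 calls, with 16 without smoke replicate 2. The fat body list had a median log2 change of -2.96, or -1.92 without air replicate 3. Limma called 0 of its 11 members and edgeR 0, DESeq2 called 9 lower, and 8 were lower and 1 higher at an unadjusted p under 0.05.

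The male response was then set against that of female larvae of the same strain, exposed to the same smoke or air. For 8606 genes kept in both sexes, the male minus the female log2 change was tested in 1 model over 16 libraries, with each difference taken within the table of its sex. The response differed for 187 genes (2.17%), of which 172 (2%) were lower in males and 15 (0.174%) higher in males. Without male air replicate 3, 167 genes differed, 155 of them lower in males, and 156 were called both ways. Of 400 genes that fell in males and were tested here, 125 differed from females (124 of them lower in males), against 8 of 771 that rose in males. Both sets were chosen on the male change that enters the difference, and the falls were larger, so these counts are not a test.

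A set of 62 genes fell in males and rose in females, while limma called 0 genes higher in males and lower in females (6 at an unadjusted p under 0.05 in both sexes). In females alone 10.9% of genes tested were called higher and 7.09% lower. Called in the same direction in both sexes were 495 genes that rose and 62 that fell. Of the 62 opposed genes 52 still fell in males without male air replicate 3. Their median log2 change was -2.96 in males and 1.40 in females. The 2 tables were normalised separately, so their levels were not tested against each other. The median over the 62 genes of the mean value was 87.2 in male smoke and 604 in male air, and 872 in female smoke and 341 in female air.

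Several of the male falls described above were among the 62. Cpr92F averaged 158 ± 91.2 in male smoke and 10321 ± 1957 in male air, and 12221 ± 2675 in female smoke and 3659.2 ± 1637 in female air, a difference of -7.99 ± 0.50, limma adjusted p = 7.53e-07. Cpr100A averaged 62.4 ± 35.2 in male smoke and 4218 ± 639.7 in male air, and 5769.9 ± 1365 in female smoke and 1538 ± 1093 in female air (-8.29 ± 0.55, limma adjusted p = 1.25e-06). Cpr62Bc had the difference furthest from 0 among the named genes, at -10.13 ± 1.44, limma adjusted p = 0.000982. Its female change was not called (log2 change 3.20 ± 1.23, limma adjusted p = 0.109), so it is not among the 62. The droplet gene Jabba averaged 86.9 ± 69.8 in male smoke and 713 ± 283 in male air, and 1055 ± 332 in female smoke and 337 ± 101 in female air (-4.84 ± 0.61, limma adjusted p = 0.000413), fu12 differed by -4.98 ± 0.53, limma adjusted p = 0.000132, and Agpat3 by -1.26 ± 0.11, limma adjusted p = 1.89e-05. Of the 21 storage genes 5 and of the 23 synthesis genes 7 responded lower in males, against 2% of all genes tested for the difference. So did 8 of 60 structural cuticle genes and 4 of 55 P450 genes. Cda5 averaged 341 ± 59.5 in male smoke and 1563 ± 264 in male air, and 2085 ± 267 in female smoke and 999 ± 228 in female air (-3.28 ± 0.26, limma adjusted p = 7.78e-06), and Wnt6 differed by -2.97 ± 0.32, limma adjusted p = 0.000132. GstD8, Cyp4c3 and Ugt36E1 belonged here too, with differences of -5.99 ± 0.72, limma adjusted p = 0.000286, of -5.98 ± 0.72, limma adjusted p = 0.000286 and of -5.68 ± 0.80, limma adjusted p = 0.000889.

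**Figure D5:**
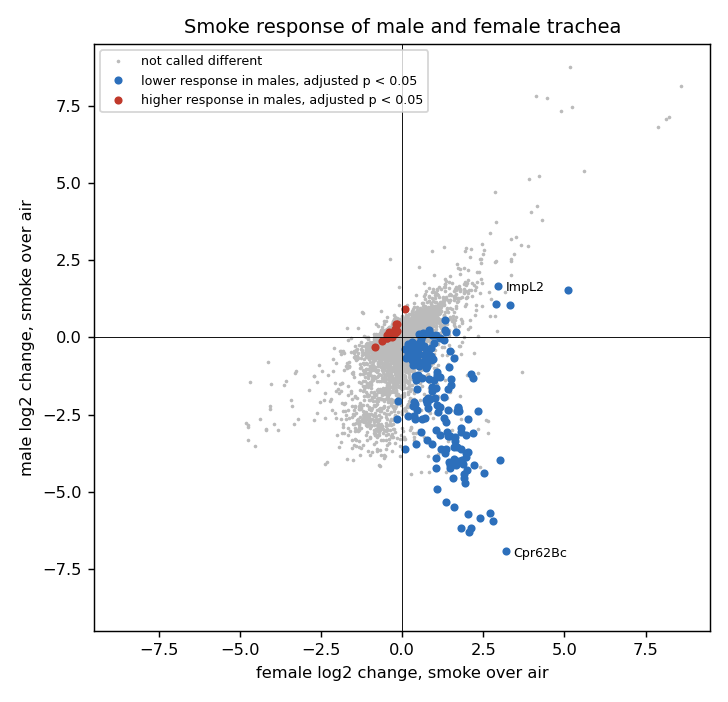
Log2 change of smoke over air in males (vertical axis) against females (horizontal axis) for 8606 genes, with the 172 genes of lower response in males in blue and the 15 of higher response in males in red. The blue points lie mainly in the lower right part, where male genes fell and female genes rose, and the red points lie near 0 on both axes.

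The genes with the smallest adjusted p for the difference included a pair without a given name. CG4000 (FBgn0038820, chromosome arm 3R) stood at 52.4, 81.8, 76.7 and 53.9 in male smoke, against 3454, 3626, 1704 and 3691 in male air, and averaged 3739.8 ± 604 in female smoke and 1237 ± 292 in female air (-7.11 ± 0.36, limma adjusted p = 7.38e-08). The RNA gene CR43452 averaged 8.92 ± 5.72 in male smoke and 504 ± 233 in male air, and 538 ± 138 in female smoke and 131 ± 37.9 in female air (-7.77 ± 0.59, limma adjusted p = 5.2e-06). Male smoke was low in all 4 libraries for both. Among genes of higher response in males the differences were small, with ec at 0.62 ± 0.11, limma adjusted p = 0.00481, Prat at 0.47 ± 0.08, limma adjusted p = 0.00511 and Rrp45 at 0.46 ± 0.08, limma adjusted p = 0.00466. In these 3, male smoke lay above male air while the female log2 change was -0.34 to -0.19; Rrp45 was not called in males, and Prat lost its male call without any 1 library (0.0527 to 0.118).

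The heat shock, redox and JNK rises were not among the differences. Limma called 0 differences among the inducible Hsp70 and Hsp68, small heat shock, co-chaperone, antioxidant and JNK lists at an adjusted p under 0.05; of their 68 genes tested here, 9 were higher and 3 lower in males at an unadjusted p under 0.05, and with a replicate block 3 were called lower in males, with a term for the naming style 1. The male minus female difference was 0.83 ± 0.29, limma adjusted p = 0.213 for stv, -1.04 ± 1.16, limma adjusted p = 0.785 for Prx2540-2 and -0.26 ± 0.17, limma adjusted p = 0.553 for puc. These values do not show that the sexes respond alike. Among the male rises named above ImpL2 was an exception, with a log2 change of 1.67 ± 0.23 in males and 2.96 ± 0.14 in females (-1.30 ± 0.29, limma adjusted p = 0.0271).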

How the data were processed

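Isolated trachea was sequenced as single 75 bp reads on a NextSeq500, per the labels' protocols. The submitters' processing notes name STAR 2.6.0c and DESeq2 1.22.2. The one genome build in those notes is human although the identifiers belong to the fly, so no coordinates are printed, and no source used here gives the counting tool, the strand setting or the annotation. For each sex the authors deposited normalised signal for 17559 genes. Judged from the values, this deposited signal is a read count over a size factor, since 100% of values lay within 0.01 of a whole read. For males the authors also deposited their comparison of smoke with air, holding a log2 fold change and an adjusted p-value per gene.

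A gene was tested if at least 4 of the 8 male libraries reached a value of 10, which it can do through 1 group alone. Smoke and air were compared with limma 3.58.1 (R 4.3.3; mean-variance trend) on log2(value + 1), which shrinks changes of low genes. Tests were two-sided with Benjamini-Hochberg adjustment at 0.05. The male minus female change was tested in 1 limma model of 16 libraries. Alternatives were other pseudocounts (0.5, 5), other filters (none, 50), equal upper quartiles or totals, array weights, edgeR 4.0.16 (quasi-likelihood, TMM) and DESeq2 1.42.0 on recovered reads, a replicate block, a term for the naming style of the libraries, replicates 1 and 2 or 3 and 4 alone, and omission of each library. On simulated reads for 8610 genes of the male comparison, limma recovered 57% of 100 genes changed by 1 and 79% of 100 changed by 2 on the log2 scale, with 10 false calls. CPM were computed from the recovered reads.

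Of the identifiers 17253 were found in Ensembl BDGP6.54, used for names, arms and overlaps. Members, the 54 gene lists and the tests were chosen with earlier results of these data known. Of the list entries 49 matched no gene and are not analysed here. For naming, candidates were called in 1 direction with all libraries and without air replicate 3, had groups that did not overlap, a mean of at least 20 in the higher group and a symbol other than a CG or CR number. Named were the 12 candidates with the largest rises and the 12 with the largest falls, up to 3 per list by adjusted p, by adjusted p of the sex difference up to 6 genes in each direction, genes fixed by name, and up to 3 leading markers of any list that 1 library held at over 3 times the median. Groups and replicate numbers come from the labels, and chi-square per degree of freedom between replicates was 32.2 to 279, so none was a copy of another.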

Additional observations from a re-analysis of the deposited data

Results flagged for a closer look

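In 360 sets of 4 libraries (each named gene and each list in each group), 32 had 1 library set apart from the other 3 by a gap larger, as a share of the whole range, than Dixon's critical value for 4, where chance gives about 1 in 20. The naming rule took leading markers of lists that 1 library held at over 3 times the median. The counts here are therefore partly fixed by that rule and are no measure of chance. Air replicate 3 was the library set apart in 11 of the 32. It held 34836 CPM of fat body, 7935 CPM of salivary gland and 396 CPM of Malpighian tubule markers, with normalised read counts of 49459 for Sgs3, 20549.6 for Sgs7, 21643 for Eig71Ee, 99437 for Fbp1, 199835 for Lsp1gamma and 215954 for Lsp1beta, and it was low for CG4000 at 1704 and stood at 1.27 for Hsp70Aa. Smoke replicate 3 was set apart for midgut markers at 125 CPM, the midgut protease genes Jon65Aiv and Jon65Aiii at 1316 and 815, Lsp1gamma at 9082, Lsp1beta at 11561, Cpr100A at 115.1, Cyp4c3 at 83.3, Jabba at 190.5, Kr-h1 at 766, the EGF receptor pathway list at 2239 CPM and the oxidative phosphorylation list at 7679 CPM. Smoke replicate 2 was set apart for muscle markers at 4089 CPM, Mhc at 8960.3, Elo68alpha at 96.3 and ref(2)P at 5339. Smoke replicate 4 was set apart for e at 3038. Air replicate 4 was set apart for Jon65Aiv at 319, Jon65Aiii at 242, ADPS at 417 and Agpat3 at 2842, and air replicate 1 for Rel at 3280.

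Male and female responses differed, by limma's test of the male minus the female log2 change, for 33 named genes. A negative difference means a lower change in males. Cuticle and matrix genes had differences of -10.13 for Cpr62Bc, -8.29 for Cpr100A, -7.99 for Cpr92F, -6.31 for Cpr56F, -4.45 for nompA and -3.28 for Cda5. Lipid genes had -8.39 for Elo68beta, -8.37 for Elo68alpha, -6.68 for ADPS, -4.98 for fu12, -4.84 for Jabba, -1.26 for Agpat3 and -0.99 for ATPCL. Genes of detoxification families had -6.64 for Cyp4d20, -6.11 for Cyp313a5, -5.99 for GstD8, -5.98 for Cyp4c3, -5.68 for Ugt36E1 and -5.28 for alpha-Est1. Other negative differences were those of CR43452 at -7.77, CG4000 at -7.11, Wnt6 at -2.97, tup at -2.48, Mco1 at -2.21, ImpL2 at -1.30, Pu at -1.15 and crq at -0.78. Positive differences were those of ec at 0.62, Grip71 at 0.54, CG1142 at 0.51, Prat at 0.47, Rrp45 at 0.46 and Prp40 at 0.37. Grip71 and CG1142 had negative log2 changes in both sexes, closer to 0 in males. These were -0.31 in males and -0.85 in females for Grip71, and -0.12 and -0.63 for CG1142.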

How the results depend on the processing

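Limma called 1178 male genes, 774 higher and 404 lower. The total was 914 to 1505 under other pseudocounts, filters, scalings, array weights and edgeR, with 444 higher when each library had the same total. It was 1976 with DESeq2 (883 lower) and 1967 once a term for the naming style was added (1242 higher, 725 lower), against 146 in replicates 1 and 2 alone (87 higher, 59 lower) and 11 in replicates 3 and 4 alone (6 and 5), where fewer libraries enter. Leaving out 1 library in turn gave 496 to 1183 calls, 355 to 723 higher and 141 to 460 lower, fewest without smoke replicate 1 and most without smoke replicate 2. The total moved by over 1.5 times without smoke replicate 1 (496), 3 (702) or 4 (639) or air replicate 2 (556), 3 (769) or 4 (614), and the falls also without air replicate 1 (252). Chosen after seeing the data, the filter redone without air replicate 3 gave 736 calls (215 lower), and edgeR without it 705 (474 higher, 231 lower). The 187 sex differences became 323 with array weights, 365 with the naming-style term and 136 to 188 with 1 library left out.

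Same-numbered libraries did not meet the rule for pairs: their deviations correlated at 0.376, 0.038, 0.371 and 0.463 for numbers 1 to 4, and smoke replicate 2 correlated best with air replicate 1 (0.052), not with its own number. With a replicate block 2816 genes were called (1669 higher, 1147 lower), with 669 sex differences, and without air replicate 3 the block gave 1862 (1183 and 679).

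Of the 126 named genes, 120 kept their sign and their side of the threshold without air replicate 3, 5 lost their call and 1 (roX1) changed sign. The 4 genes that changed sign under some setting were not called with all libraries. Jon65Aiv had a log2 change of -1.56, against 0.99 in edgeR, 0.81 in edgeR without air replicate 3 and 0.090 in replicates 3 and 4 alone, and Jon65Aiii -2.22, against 0.76 and 0.61 in those edgeR fits. roX1 had 0.021, against -0.052 with the same total, -0.093 with array weights, -0.023 with edgeR, -0.019 with DESeq2, -0.11 in replicates 1 and 2 alone, -0.14 to 0.15 with 1 library left out, -0.065 with the filter redone and -0.097 in edgeR without air replicate 3. roX2 had -0.16, against 0.21 in replicates 3 and 4 alone and -0.34 to 0.033 with 1 library left out, the highest without air replicate 2. The cause of these shifts was not tested. Depth limits genes near 0, such as the Hsp70 copies in air.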

Other observations

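Several fixed lists lay outside the groups described so far. Their counts stand against 8.89% of all genes called higher and 4.64% called lower (6.04% and 2.79% without air replicate 3). Of 19 basement membrane and protease genes 2 rose and 3 fell (1 and 1 without air replicate 3); the integrin genes mew and mys rose, and Ndg, LanB1 and LanB2, which encode nidogen and laminin chains, fell. Of 28 septate junction genes bou and scrib rose (1 without air replicate 3), of 19 Hippo and Fat-Dachsous genes kibra and crb rose (2), and of 17 proton pump genes 3 rose (2). With all libraries the septate junction and Hippo counts lay near the share of all genes. Of 15 chitinase and Idgf genes Cht11 and Hexo2 fell (1). Of 15 genes of male dosage compensation mof, Sxl and tra rose (2). Among these genes mys, LanB1, LanB2, scrib, Hexo2 and tra were not called without air replicate 3. Ndg, crb, Cht11, Sxl and the pump genes Vha100-2 and VhaAC45RP kept their call without air replicate 3 and lost it without other single libraries, at adjusted p from 0.0503 to 0.105. Among other cell types, 1 of 16 hemocyte markers fell (crq), 1 of 11 neuron and glia markers rose (moody) while 8 had negative log2 changes and DESeq2 called 4 lower, 1 of 4 Malpighian tubule markers fell (Uro), and of 20 imaginal disc markers Ubx rose and tup fell while 16 had negative log2 changes. Of 9 salivary gland markers tested CrebA rose while 8 had negative log2 changes. Ubx was not called without air replicate 3, nor were Uro and CrebA. Limma and edgeR called 0 of 7 posterior spiracle, 0 of 6 nephrocyte, 0 of 6 midgut and 0 of 2 testis markers, and DESeq2 called 1 posterior spiracle and 1 midgut marker lower. At an unadjusted p under 0.05 posterior spiracle had 1 higher and 1 lower, nephrocytes 2 lower, and midgut and testis 1 lower each.

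The authors' deposited table for males listed 429 genes as higher and 1156 as lower with smoke, with adjusted p up to 0.0991 and 0.0996. The smallest absolute log2 changes in these lists were 0.59 and 0.6. Calls here used an adjusted p under 0.05 and no limit on the change, so the thresholds differ. Air replicate 3 was the highest of the 8 libraries for 765 (66.2%) of the 1156 lower genes of the authors' deposited table, against 20.3% of the 8705 genes tested here. The 20.3% includes genes that rose, and the 1156 include genes that did not pass the filter, so the shares are not matched. Of the 429 higher genes 414 passed the filter used here, 330 were called higher by limma and 293 without air replicate 3. Of the 1156 genes 774 passed the filter, 311 were called lower and 198 without air replicate 3.

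Called genes lay on every large chromosome arm. On 2L 7.29% of genes tested were called higher and 5.61% lower, on 2R 8.84% and 4.28%, on 3L 9.45% and 5.29%, on 3R 9.62% and 4.9%, and on X 9.3% and 3.17%.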
